A study of Drosophila melanogaster with 2 samples.

Results

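One-strand promoter peaks are the peaks of a vvl-eGFP chromatin immunoprecipitation whose summit lay within 500 bp of a protein-coding transcript start, with all such starts on a single strand. Of the 8309 peaks in the conservative list of the series, 2565 met this rule, or 30.9%. Another 995 peaks, here called divergent, had protein-coding starts on both strands within 500 bp, and 4749 lay away from any protein-coding start. The immunoprecipitation used an antibody against GFP on chromatin of whole Drosophila melanogaster embryos aged 0 to 24 h, from flies with a transgene that fuses the transcription factor ventral veins lacking (vvl) to eGFP. Both samples, biological replicates 1 and 2, belong to this 1 group, and no control sample was used here. The labels do not name the promoter that drives the fusion. In whole embryos of mixed age, binding in more cells and stronger binding per cell cannot be told apart.

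vvl is a POU-domain factor known for its roles in the tracheal system, the midline and other glia, neurons and wing veins, and POU domains recognise the octamer ATGCAAAT and related words. Promoters of flies carry their own short words. The DNA replication-related element (DRE, TATCGATA) and the word GGTCACAC, bound by the factor M1BP, are typical of promoters of broadly expressed genes, whereas GAGA repeats, bound by Trl, are typical of developmental and inducible promoters with paused polymerase.

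The octamer, the DRE, the M1BP word and the GAGA word (GAGAGAG) each marked a small share of the one-strand peaks, 601 of 2565 together. Strong peaks with each word are printed here because they show the DNA that these shares stand for. Each line gives the 121 bases centred on the summit, from the Release 6 genome of RefSeq (dm6), read in the direction of the gene, with the word, or its reverse complement, in capitals. They were the 3 peaks of highest signal per word on 5 of the 6 arms, among those with the word within 60 bp of the summit and at most 30 annotated UTR bases in view, so stronger peaks with the words exist.
Hsp27 (chr3L:9383865-9383985, plus strand): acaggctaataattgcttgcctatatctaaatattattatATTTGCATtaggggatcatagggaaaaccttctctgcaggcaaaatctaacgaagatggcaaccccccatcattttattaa
aay (chr3L:9423005-9423125, plus strand): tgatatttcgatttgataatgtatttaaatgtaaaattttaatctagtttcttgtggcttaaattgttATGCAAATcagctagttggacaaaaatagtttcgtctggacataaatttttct
CG31431 (chr3R:21870479-21870599, plus strand): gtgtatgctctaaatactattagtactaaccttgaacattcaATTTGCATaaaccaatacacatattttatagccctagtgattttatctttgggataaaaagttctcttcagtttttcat
eEF1gamma (chr3R:29220074-29220194, plus strand): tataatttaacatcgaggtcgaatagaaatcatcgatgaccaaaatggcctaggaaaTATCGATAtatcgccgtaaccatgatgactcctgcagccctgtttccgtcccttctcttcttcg
CG32091 (chr3L:11630843-11630963, plus strand): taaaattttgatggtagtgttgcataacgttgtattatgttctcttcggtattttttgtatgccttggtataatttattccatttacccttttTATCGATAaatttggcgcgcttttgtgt
Nf1 (chr3R:25982873-25982993, plus strand): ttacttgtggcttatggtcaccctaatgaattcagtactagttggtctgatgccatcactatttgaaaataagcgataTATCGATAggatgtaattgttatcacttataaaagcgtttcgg
lute (chr3R:17385751-17385871, plus strand): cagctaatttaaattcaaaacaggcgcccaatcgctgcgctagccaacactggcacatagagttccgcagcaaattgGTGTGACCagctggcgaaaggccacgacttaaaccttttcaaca
CG14252 (chr3R:26945357-26945477, plus strand): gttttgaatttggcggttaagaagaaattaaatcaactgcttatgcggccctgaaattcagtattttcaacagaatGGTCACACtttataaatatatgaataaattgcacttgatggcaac
beta-PheRS (chr3R:24252658-24252778, minus strand): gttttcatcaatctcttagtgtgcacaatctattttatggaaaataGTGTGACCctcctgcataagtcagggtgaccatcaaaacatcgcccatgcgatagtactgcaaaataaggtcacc
CG1907 (chr3R:29618825-29618945, plus strand): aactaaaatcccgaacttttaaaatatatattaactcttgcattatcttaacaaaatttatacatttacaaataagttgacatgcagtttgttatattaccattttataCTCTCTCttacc
Hsp26 (chr3L:9377473-9377593, minus strand): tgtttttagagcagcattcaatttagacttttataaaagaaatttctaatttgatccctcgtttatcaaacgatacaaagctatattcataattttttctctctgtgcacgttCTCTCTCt
Inx7 (chrX:6993911-6994031, minus strand): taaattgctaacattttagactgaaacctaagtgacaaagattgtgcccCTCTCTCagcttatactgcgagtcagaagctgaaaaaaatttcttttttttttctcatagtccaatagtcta

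The first 3 of these carry the octamer, the next 3 the DRE, then 3 the M1BP word and the last 3 GAGA. Hsp27 (a small heat shock protein), aay (astray, a phosphoserine phosphatase) and CG31431 held the octamer 154, 176 and 156 bp upstream of the start. eEF1gamma, a translation elongation factor subunit, held the DRE 37 bp upstream, and Nf1, the neurofibromin gene, 58 bp upstream. CG32091 held it 452 bp upstream. The M1BP word lay 59 bp upstream of lute, 97 bp upstream of CG14252 and 49 bp upstream of beta-PheRS. GAGA lay 128 bp upstream of CG1907, 50 bp upstream of Hsp26 and 367 bp upstream of Inx7, an innexin gene. In Hsp26 the 7 bases in capitals sit at the very edge of the window shown, and the summit itself was 106 bp upstream of the start.

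One-strand summits lay mostly just upstream of the gene they faced. Counted from the nearest start in the direction of transcription, the median summit was at -66 bp, with quartiles at -179 and 15 bp. Upstream of the start lay 1828 of the 2565, or 71.3% (exact 95% interval 69.5 to 73.0), and 1265, or 49.3%, were in the first 200 bp upstream. For the 2721 one-strand peaks listed in replicate 1 the median was -65 bp, and for the 2210 listed in replicate 2 it was -75 bp. The medians of the 2 lists thus lay within 10 bp of each other, on the same side of the start. They describe different sets of peaks, and distances between paired summits of the replicates were not measured. At genes with a single annotated start the choice of start is not open. For those with no protein-coding start on the other strand within 1000 bp, the median of 982 peaks was -73.5 bp. Peaks are not replicates, so intervals here and below cover only the error of counting them, and the read depth is unknown.

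**Figure D1:**
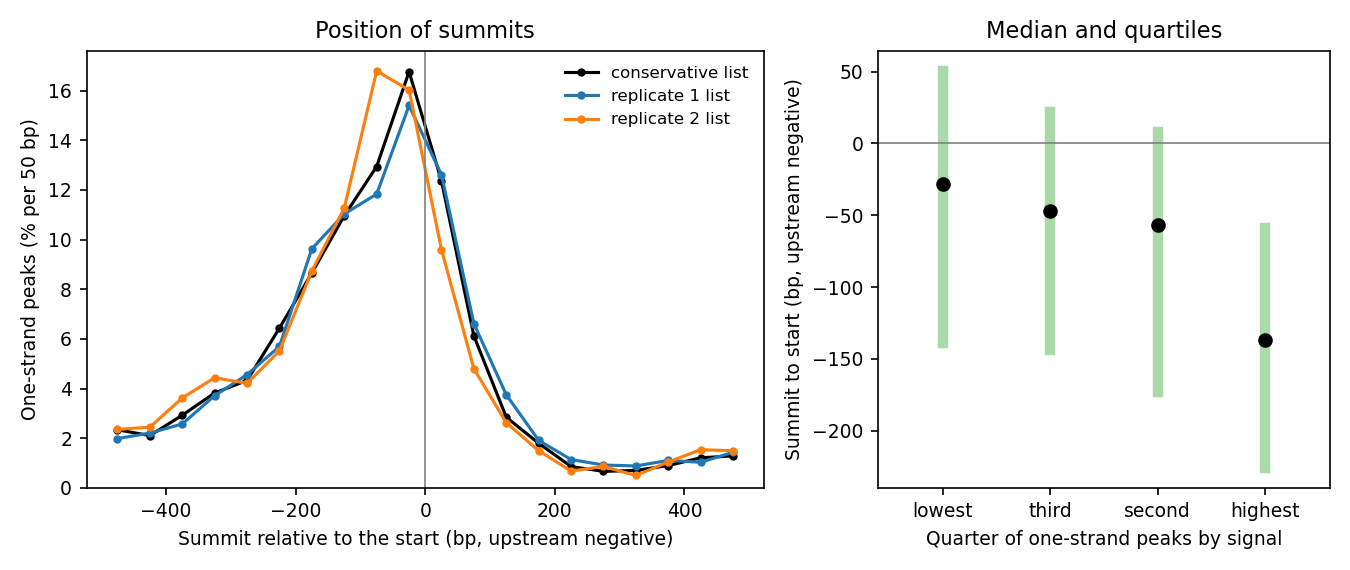
Left, share of one-strand peaks per 50 bp of distance between summit and start (bp, upstream negative) in the conservative list and in the lists of replicates 1 and 2. Right, median (points) and quartiles (bars) of the same distance in 4 equal sets of the conservative one-strand peaks by signal, at -28.5 bp in the weakest and -137 bp in the strongest.

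Stronger peaks lay farther upstream. By the authors' signal per peak, the medians of 4 sets of equal size were -28.5, -47, -57 and -137 bp from the weakest to the strongest. In the strongest 25% 544 of 641 summits, or 84.9%, were upstream, against 381 of 641, or 59.4%, in the weakest 25% (difference 25.4 points, Fisher's exact test, 2-sided adjusted exact p = 6.2e-24). Between 100 and 250 bp upstream lay 42.3% of the strongest and 18.7% of the weakest 25% (adjusted exact p = 6.06e-20), while within 50 bp of the start the order was turned, with 13.9% against 33.2% (adjusted exact p = 3.43e-16). The same 3 differences passed in each replicate's own list ranked by its own signal: upstream shares were 82.7% against 57.2% in replicate 1 (adjusted exact p = 6.2e-24) and 87.0% against 63.0% in replicate 2 (adjusted exact p = 4.1e-20). These tests and their distance bins were added after the medians had been seen, and the p-values are adjusted over the 9. The rule itself bounds every distance at 500 bp and leaves out summits near starts on both strands. The series list drew on the same 2 replicates, so the replicate lists are no independent repeat. Peaks are the units of these p-values and are not replicates. GC content within 100 bp of the summit moved with signal, at 36.8% ± 7.82 in the strongest and 43.7% ± 8.71 in the weakest 25% (SD over peaks). Among one-strand peaks of middle GC content, from 34.8% to 47.8%, the upstream shares were 84.1% of 290 and 61.3% of 333 (Fisher's exact test, p = 1.53e-10).

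By annotation, 1124 one-strand summits, or 43.8%, lay outside protein-coding genes, 694 (27.1%) in a 5′ UTR and 687 (26.8%) in an intron of this or an overlapping gene. Coding exons held 23 and 3′ UTRs 37. Just inside the limit of 500 bp were the peaks of qtc at 498 bp downstream (signal 219.5), mats at 497 bp downstream (308.9) and CG14556 at 497 bp upstream (86.5). Just outside it were those of pAbp at 502 bp downstream (436.7), of CG44253 and Fatp2 at 502 bp upstream (128.2) and of Cyp310a1 at 503 bp upstream (334.9). Signals on both sides of the limit overlapped.

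The 20 strongest one-strand peaks were all present in both replicate lists, 18 of them upstream and 14 between 100 and 250 bp upstream. The signal behind this order draws on both replicates, so presence of the strongest peaks in both lists is no independent result. The first was at the promoter of Ugalt, a UDP-galactose transporter gene (chrX:2703688-2704074), with signal 3297 and with 1641 in replicate 1 and 1664 in replicate 2. It was followed by CG14100 with 3015 (1328 and 1705 in replicates 1 and 2) and by mRpL41, which encodes a protein of the mitochondrial ribosome, with 2627 (1189 and 1428). Replicates 1 and 2 thus gave these leaders signals of the same order, and ranked each among the first 12 of its own ranked list.

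Next came CG18549 with signal 2486, the RNA-degrading enzyme gene PNPase with 2308, the Polycomb group gene ph-p with 2297, the wing vein gene px (plexus) with 2276, the ER prolyl isomerase gene Fkbp14 with 1955, the pseudouridine synthase gene RluA-1 with 1830 and the ribosome biogenesis factor eIF6 with 1818. The rest of the 20 were CG1635, Tina-1, CG1888, GstE13, the glycolysis gene Gapdh2, the casein kinase gene gish, the reticulon gene Rtnl1, osp, MFS10 and the RNA-binding Musashi gene msi, with signals of 1783 down to 1375. The set mixes metabolic, organelle and regulatory genes. None of the 20 had the octamer within 100 bp of the summit, 1 (eIF6) had the DRE, none the M1BP word and 2 (CG18549 and px) GAGA.

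The highest one-strand peaks that lacked a match in 1 of the replicate lists were far lower. Mal-A5, a maltase gene, had signal 506.1, with 213.7 in replicate 2 and no summit within 100 bp in replicate 1. Idh3b, an isocitrate dehydrogenase subunit gene, had 430.1, RpS3A 382.3 and HmgZ 265.1, each with a match in the list of replicate 1 and no replicate 2 summit within 100 bp. Prx4 had 273.2 and a match in the list of replicate 2. All of the 100 strongest one-strand peaks were in both lists. Because the signal of the series draws on both replicates, a peak missing from 1 list tends to rank lower by construction.

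One-strand peaks were weaker than divergent ones and were recovered differently by the 2 replicates. Their median signal was 141.4 (quartiles 103.5 and 216.9), against 165.5 at divergent promoters and 136.9 away from starts. In the strongest 25% of all 8309 peaks, above a signal of 218.4, were 24.8% of one-strand peaks, against 35.7% of divergent ones (difference -10.8 points, 95% interval -14.3 to -7.43, Fisher's exact test, adjusted exact p = 4.32e-10) and 22.9% of those away (1.97 points, -0.0886 to 4.02, adjusted exact p = 0.0606). The list of replicate 1 overlapped 82.0% of one-strand, 81.6% of divergent and 81.3% of other peaks, and neither difference passed (0.419 points, -2.41 to 3.25, adjusted exact p = 0.771 against divergent; 0.768 points, -1.09 to 2.62, adjusted exact p = 0.573 against other peaks). The list of replicate 2 overlapped 76.2% of one-strand peaks, against 86.8% of divergent ones (adjusted exact p = 2.2e-12) and 69.0% of those away (adjusted exact p = 1.36e-10). Both replicates held 65.3% of the one-strand peaks, neither held 181, and 429 were in replicate 1 alone and 280 in replicate 2 alone. Between replicates, the rank correlation of signal over the 2236 one-strand peaks matched within 100 bp in both ranked lists was 0.644, a description across peaks that share their libraries.

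The words at one-strand summits differed from those of both other classes. Shares over all divergent promoters, with or without a peak, were not counted. Whether the differences are particular to promoters with peaks was therefore not tested. By the rule, divergent summits had starts on both strands within 500 bp, and one-strand summits on 1 only. Words that gather near starts, such as the DRE and the M1BP word, thus had more starts to lie near at divergent summits. The part of this in the differences was not tested. GAGA lay within 100 bp of 228 one-strand summits, or 8.89%, and of only 7 divergent ones, or 0.704% (odds ratio 13.8, 95% interval 6.47 to 29.3, Fisher's exact test, adjusted exact p = 6.91e-24 over 46 tests). The DRE and the M1BP word went the other way. The DRE was at 6.55% of one-strand and 12.9% of divergent peaks (odds ratio 0.475, adjusted exact p = 1.94e-08), and the M1BP word at 5.42% and 9.05% (0.576, adjusted exact p = 3.76e-04). Each replicate's list alone gave the same order: GAGA was at 11.0% of one-strand and 0.669% of divergent peaks in replicate 1, and at 8.01% and 1.08% in replicate 2, and the DRE at 5.66% and 11.7% in replicate 1 and at 7.24% and 13.6% in replicate 2. GC content was 41.5% ± 8.83 at one-strand and 36.4% ± 7.61 at divergent peaks. Among one-strand and divergent peaks of middle GC content, here 33.3% to 46.3%, the odds ratio of GAGA was 6.17 (adjusted exact p = 7.25e-06) and that of the DRE 0.609 (adjusted exact p = 0.00612), while the M1BP word no longer passed (0.700, adjusted exact p = 0.139).

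In all, 5 of 23 words differed between one-strand and divergent peaks, with GAGA higher and 4 lower. The other two that were lower were the homeodomain word TAATTA, at 12.5% against 21.6% (odds ratio 0.519, adjusted exact p = 2.12e-10), and CGATAG, which shares 6 bases with a DRE followed by G, at 385 of 2565 against 261 of 995 summits (0.497, adjusted exact p = 2.6e-13). Of the 385 one-strand peaks with CGATAG, 126 also held a DRE. CGATAG was picked as a leading 6-mer of all peaks of these data, so its difference is no independent result. Over all 6-mers, strands merged, a scan added after these values were seen, 287 were more frequent at one-strand and 104 at divergent summits, led by GAGAGA (14.9% against 3.62%, odds ratio 4.68) and, on the divergent side, TATCGA (19.0% against 33.0%, 0.478). The difference in GC content stands beside these counts, and its part in them was not tested.

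The octamer did not separate one-strand from divergent peaks but did separate them from peaks away from starts. It lay near 103 one-strand summits, or 4.02%, against 35 divergent ones, or 3.52% (odds ratio 1.15, 95% interval 0.776 to 1.70, adjusted exact p = 0.693), and against 417 of the 4749 other peaks, or 8.78% (odds ratio 0.435, adjusted exact p = 3.34e-14). The related words ATGCTAAT and ATGCATAT were at 1.29% and 1.83% of one-strand peaks, against 3.75% and 3.22% of those away from starts (adjusted exact p = 1.33e-09 and 0.00101). The reversed octamer TAAACGTA and the shuffled AACATGTA, which serve as composition controls, were at 0.624% and 0.780% of one-strand peaks and at 0.737% and 0.990% of those away, and did not pass. In replicate 1 the octamer was at 4.48% of one-strand peaks and 11.1% of those away, and in replicate 2 at 3.39% and 7.09%.

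Against peaks away from starts, 15 words differed, 7 higher and 8 lower at one-strand peaks. These classes were set by distance to a start, and promoter words such as the DRE and the M1BP word gather near starts. The excess of such words here cannot be told apart from that rule. Higher were 5 promoter words and 2 words first picked as leading 6-mers of all peaks of these data: the DRE (6.55% against 0.421%, odds ratio 16.6), the M1BP word (5.42% against 0.463%, 12.3), the E-box CAGCTG (13.9% against 6.70%, 2.25, adjusted exact p = 4.15e-22), CGATAG (385 against 172 summits, 4.70, adjusted exact p = 2.95e-63), GTATTTTT (5.07% against 3.56%, 1.45), ACACTG (19.0% against 15.7%, 1.26) and GAGA. The promoter words GTATATTT (1.28, adjusted exact p = 0.147) and TATAAAAG (0.785, adjusted exact p = 0.369) did not pass. GAGA was at 5.52% of the peaks away from starts (odds ratio 1.67, adjusted exact p = 2.42e-07), and among peaks of middle GC content its call was lost (1.24, adjusted exact p = 0.282), as was that of TAATTA (adjusted exact p = 0.721). Lower were the octamer, its 2 variants and its part TGCAAAT (7.88% against 12.2%), the homeodomain word TAATTA (12.5% against 16.0%) and the words of Twist (CATATG, 5.65% against 8.91%), Zelda (CAGGTAG, 0.429% against 0.948%) and Sox factors (ACAATG, 8.42% against 12.1%).

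**Figure D2:**
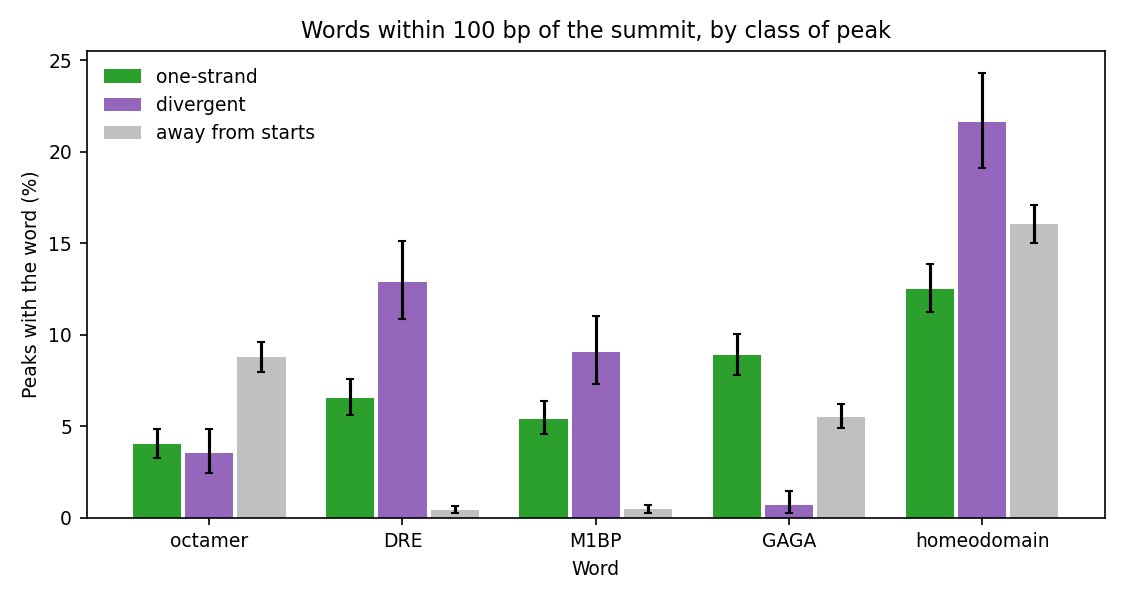
Share of one-strand, divergent and other peaks (bars, %, with exact 95% binomial intervals over peaks) with each of 5 words within 100 bp of the summit. GAGA reaches 8.89% at one-strand and 0.704% at divergent peaks, and the octamer 4.02%, 3.52% and 8.78% in the 3 classes.

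The promoter words kept set places relative to the start, and the octamer did not. Within 300 bp of the starts of one-strand peaks, DRE occurrences had a median position of -53.5 bp (quartiles -86.5 and -19), with 101 of 291 between 100 and 50 bp upstream and 94 in the last 50 bp. M1BP words centred on -6.5 bp (quartiles -56.8 and 12.5). GAGA words, overlapping repeats counted each, centred on -93 bp (quartiles -147.2 and -50). Octamers numbered 217 with quartiles at -174.5 and 166.5 bp, and only 9 and 5 fell in the 50 bp before and after the start, the fewest of any bins. TAATTA likewise was thinnest around the start and densest between 200 and 150 bp upstream.

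**Figure D3:**
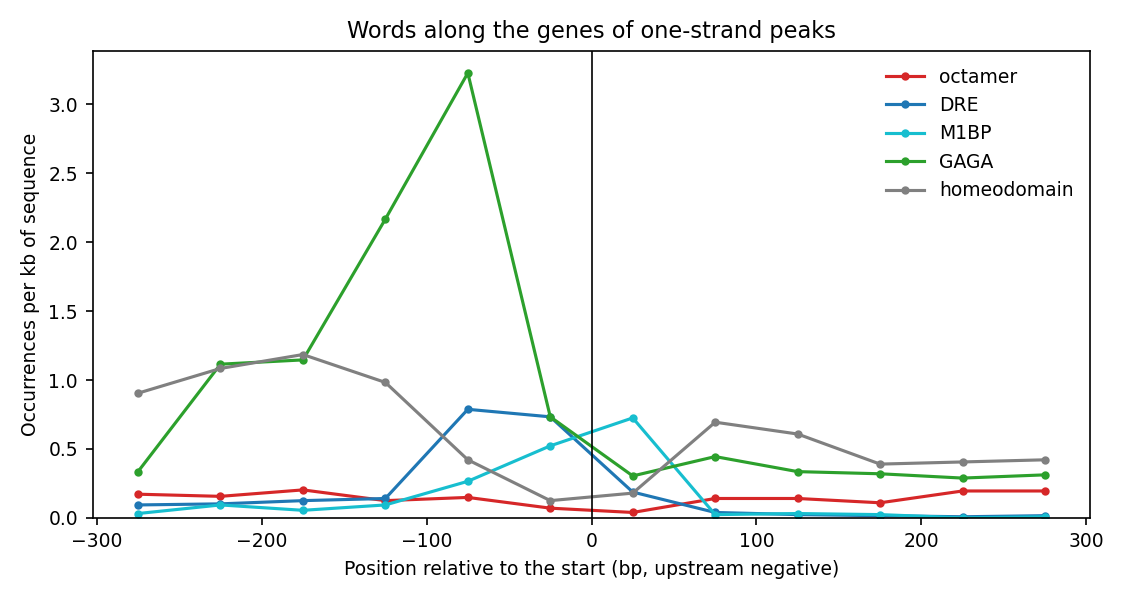
Occurrences of 5 words per kb of sequence in 50 bp bins around the starts of the 2565 one-strand peaks (x axis, bp from the start, upstream negative). GAGA peaks between 100 and 50 bp upstream, the DRE in the last 100 bp, the M1BP word around the start, and the octamer stays low throughout.

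The M1BP word had a direction. From 150 bp upstream to 50 bp downstream, 154 of 206 M1BP words, or 74.8% (exact 95% interval 68.2 to 80.5), read as GGTCACAC on the strand of the gene. GAGA words were split evenly, with 409 of 826, or 49.5% (46.1 to 53.0), on the strand of the gene. Overlapping GAGA repeats were counted each and are not independent, so that interval is too narrow. For the octamer the share was 31 of 49, or 63.3% (48.3 to 76.6), an interval that includes an even split. The DRE is its own reverse complement and has no direction.

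Because words were sought near the summit, summits and words share their places by construction, and the following is a description. Peaks with the DRE had their median summit at -42.5 bp and 135 of 168 upstream, and those with the M1BP word at -43 bp with 106 of 139 upstream. Peaks with GAGA had it at -109 bp, and those with the octamer at -77 bp with wide quartiles of -195 and 80.5 bp. Both DRE and M1BP word were held by 17 peaks, or 12.2% of the M1BP peaks, where 6.55% of all one-strand peaks held a DRE. Octamer and GAGA met in 10, or 9.71% of the octamer peaks, where 8.89% of all held GAGA, octamer and DRE in 3, and octamer and M1BP word in 1. None of the 4 words was near 1964 one-strand summits, or 76.6%.

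Beside the 82.0% of all one-strand peaks in replicate 1's list and the 76.2% in replicate 2's, peaks with the words were held as follows. Of the 103 octamer peaks, 91.3% were in replicate 1's list and 73.8% in replicate 2's, and of the 228 GAGA peaks 84.2% and 66.2%. DRE peaks were in replicate 1 in 79.2% and in replicate 2 in 79.8% of cases, and M1BP peaks in 81.3% and 77.7%. Among one-strand peaks in a single replicate list, a comparison added afterwards, GAGA was near 57 of the 429 found in replicate 1 alone, or 13.3%, and 16 of the 280 found in replicate 2 alone, or 5.71% (odds ratio 2.53, Fisher's exact test, adjusted exact p = 0.0224 over 23 words). The octamer was near 20 of the peaks of replicate 1 alone, or 4.66%, and 2 of those of replicate 2 alone, or 0.714% (6.80, adjusted exact p = 0.0343). No other word passed. GC content was 45.2% ± 8.79 in the peaks of replicate 1 alone and 40.5% ± 7.49 in those of replicate 2 alone, and its part in these differences was not tested.

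The strongest octamer peaks were those of Hsp27 with signal 1083 (592.5 in replicate 1, 502.4 in replicate 2), aay with 1026 (594.1 and 428.5), CG31431 with 972.1 (493.7 and 478.2), Pgant35A, a glycosyltransferase gene needed for tracheal tubes, with 824.8 (430.0 and 387.1), and CG9471 with 571.9 (321.6 and 249.6). All 5 overlapped peaks in both replicate lists. The strongest DRE peaks belonged to eIF6, Alg3, eEF1gamma, CG11151 and CG1827, with signals from 1818 to 594.3. The strongest M1BP peaks were lower, from RpL30 with 550.6 through CG34195, the calnexin gene Cnx99A and eEF1alpha1 to RpL27A with 344.3. GAGA peaks were led by CG18549, px, the tyrosine kinase gene Btk, CG1907 and TRAM, with signals from 2486 to 1082.

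Signal within the one-strand peaks went with few of the words. Of 23 words, 2 differed between the strongest and the weakest 25%: TAATTA, near 17.2% and 10.3% of summits (odds ratio 1.80, Fisher's exact test, adjusted exact p = 0.00528), and ACAGTG, near 21.4% and 12.6% (1.88, adjusted exact p = 9.24e-04). Neither passed in the list of replicate 2 (TAATTA 1.35, adjusted exact p = 0.533), where the M1BP word alone passed, lower in the strongest 25% (0.396, adjusted exact p = 0.0390). ACAGTG was picked as a leading 6-mer of all peaks of these data, so its difference is no independent result. In the conservative list the M1BP word was near 4.06% of the strongest and 6.08% of the weakest 25% (0.653, adjusted exact p = 0.414). The octamer was near 5.15% of the strongest and 2.81% of the weakest 25% (1.88, adjusted exact p = 0.256), and the DRE near 4.68% and 5.62% (0.825, adjusted exact p = 1). In a scan of all 6-mers added afterwards, 166 were more and 214 less frequent in the strongest 25%. In that scan, of 641 against 641 peaks, 663 of the 6-mers had an unadjusted p under 0.05 by Fisher's exact test. Some unadjusted p-values under 0.05 arise by chance among so many tests. Among the one-strand peaks of 34.8% to 47.8% GC none of the 6-mers passed the same Fisher's exact test, with 179 at an unadjusted p under 0.05, in 290 and 333 peaks. TAATTA and ACAGTG were among the 6-mers that did not pass there.

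Words at the starts themselves were then compared between bound and unbound promoters. An isolated start had no protein-coding start on the other strand within 1000 bp; there were 11686, and 2113 had a summit within 500 bp, here called bound. No control was used, so how much signal active promoters give without vvl-eGFP was not tested, and bound means only a listed summit. From 200 bp upstream to 100 bp downstream, GAGA was at 16.2% of bound and 7.19% of unbound starts (odds ratio 2.49, 95% interval 2.17 to 2.87, Fisher's exact test, adjusted exact p = 3.28e-33) and at 8.81% of all isolated starts. The M1BP word was at 7.43% and 2.94% (2.65, adjusted exact p = 2.36e-18) and at 3.75% of all, and the DRE at 7.76% and 3.82% (2.12, adjusted exact p = 6.81e-13) and at 4.53% of all. The octamer was at 3.74% of bound, 3.24% of unbound and 3.33% of all starts, a difference of 0.501 points with an interval of -0.383 to 1.38 (odds ratio 1.16, adjusted exact p = 0.362). In the list of replicate 2 alone its odds ratio was 0.932 (adjusted exact p = 0.770), on the other side of 1. At starts the octamer gave no detectable separation of bound from unbound promoters in these lists.

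In all, 8 words were more frequent and 3 less frequent at bound starts, but 3 of the 8 (ACACTG, then CGATAG and also ACAGTG) were picked as leading 6-mers of all peaks of these data, so their excess is no independent result. Higher too were CAGCTG (20.1% against 14.6%, odds ratio 1.47), ACACTG (21.6% against 13.8%, 1.73), ACAGTG (17.8% against 10.8%, 1.79), CGATAG (18.0% against 10.9%, 1.80) and GTATTTTT (6.77% against 5.31%, 1.30, adjusted exact p = 0.0212). Lower were TATAAAAG, the extended TATA word (3.12% against 6.15%, 0.492, adjusted exact p = 2.11e-08), the Sox word ACAATG (12.2% against 16.2%, 0.715) and the GATA word AGATAAG (3.41% against 5.10%, 0.657, adjusted exact p = 0.00166). TAATTA was at 14.9% of bound and 16.1% of unbound starts (0.909, adjusted exact p = 0.242), but passed in the narrower window from 100 bp upstream to 50 bp downstream (0.531, adjusted exact p = 8.87e-08) and in the list of replicate 1 (0.818, adjusted exact p = 0.00607). Bound starts had slightly more GC, 43.0% ± 7.74 against 41.3% ± 7.96 (SD over starts). Among starts of middle GC content, 35.2% to 47.5%, the odds ratios were 2.18 for GAGA, 3.70 for the M1BP word, 2.71 for the DRE and 1.42 for the octamer (adjusted exact p = 0.0594), and 12 words passed.

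Of all 6-mers, 90 were more frequent at bound starts, or 4.33% of those tested, and 80 less frequent, or 3.85%. The scans of 6-mers near summits given above tested this same set, so their counts can be read on the same scale. The leaders were AGAGCG (27.9% of bound and 15.2% of unbound starts, odds ratio 2.16, adjusted exact p = 1.29e-36), AGAGAG (28.7% and 16.0%, 2.11), GAGAGA (25.7% and 14.6%, 2.02), GCGAGA with an odds ratio of 2.00, then CGCGCA with 1.97 and GAGCGA with 1.97, and further GAGCGC with 1.97, then AGCGAG with 1.97, next AGCGCG with 1.95 and last CCGCTC with 1.91. Many of these overlap each other in letters. Lowest were ATCCTG (3.22% and 8.24%, 0.370, adjusted exact p = 2.93e-16), AGGACC with 0.411, then CAGGAC with 0.430, next AAGGAC with 0.431 and last CCAGGA with 0.434, which also share letters.

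Core promoter elements differed as well. The TATA box, sought as TATAAA or TATATA from 40 to 20 bp upstream, was at 5.21% of bound and 11.5% of unbound starts (odds ratio 0.424, 95% interval 0.346 to 0.519, Fisher's exact test, adjusted exact p = 2.7e-19 over 5 elements). The initiator (TCA, then G or T, then T, then T or C, across the start) was at 19.3% and 14.2% (1.44, adjusted exact p = 1.15e-08). Downstream of the start, the downstream promoter element was at 8.19% and 4.44% (1.92, adjusted exact p = 6.82e-11) and the bridge element at 9.65% and 5.83% (1.73, adjusted exact p = 1.54e-09). The TCT initiator, the form of ribosomal protein promoters, was at 1.33% and 1.06% (1.26, interval 0.826 to 1.92, adjusted exact p = 0.300).

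**Figure D4:**
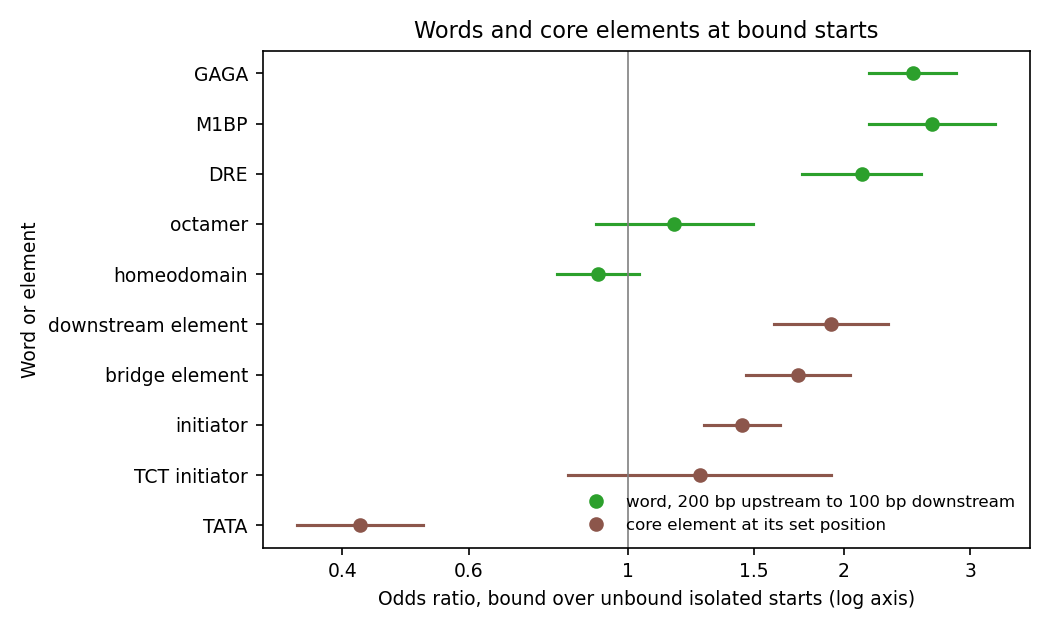
Odds ratios of words and core elements at bound over unbound isolated starts (log axis, points with 95% intervals over starts). GAGA, the M1BP word and the DRE lie above 2, TATA at 0.424, and the intervals of the octamer, the homeodomain word and the TCT initiator include 1.

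One-strand peaks touched 2225 genes, of which 343 had 2 or more of them. The highest number was 6, at the translational repressor gene pum, followed by 5 at the phosphatase gene Ptpmeg2, at CG6231 and at Rtnl1. The 5 peaks of Rtnl1 had signals of 1432, 621.6, 308.1, 276.4 and 121.1, and those of Ptpmeg2 797.3, 712.1, 666.4, 203.8 and 202.0. The 6 of pum were weaker, from 165.8 to 50.5. At 74 peaks the starts of 2 or more genes on the strand lay within 500 bp.

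Among 9521 protein-coding genes with an isolated start, 1934 had a summit within 500 bp of one, or 20.3%. By the peaks of replicate 1 the share was 20.9%, and by those of replicate 2 it was 17.7%. The share climbed with gene length, from 5.65% of 1841 genes under 1 kb to 39.6% of 627 genes of 30 kb or more, and with the number of starts, from 15.5% at genes with 1 start through 32.2% with 2 to 53.4% with 3 or more. Among genes with 1 start it was 9.25% under 2 kb, 22.1% from 2 to 10 kb and 27.9% at 10 kb or more. More starts give a gene more chances to lie near a summit, so the lists that follow are described by their counts beside the 20.3% and not tested. The peaks named for a list are its strongest one-strand peaks, at an isolated start or not.

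Genes of the cytoplasmic ribosome, which keep translation running in every cell, were bound in 26 of 42 with an isolated start, or 61.9% (exact 95% interval 45.6 to 76.4), with 26 in replicate 1 and 24 in replicate 2. Their leaders were RpL30 with signal 550.6, RpL23A with 547.7, RpL24 with 468.7 and RpL11 with 419.1, with summits from 1 to 96 bp upstream of the start. One-strand peaks, at isolated starts or not, lay at 42 genes of the list, and of the strongest at each gene 14 held the DRE, 7 the M1BP word, 2 the octamer and none GAGA, beside 6.55%, 5.42%, 4.02% and 8.89% of all one-strand peaks. Mitochondrial ribosome genes were bound in 1 of 15 (6.67%, 0.169 to 31.9), with 3 in replicate 1 and 2 in replicate 2, and the list's strongest one-strand peak was that of mRpL41. Proteasome genes were bound in 3 of 23, with 3 in replicate 1 and 2 in replicate 2, led by Rpn11 with 203.0. Oxidative phosphorylation genes stood at 10 of 45, led by ND-B22 with 229.4, and translation factors at 8 of 29, led by eIF6, eEF1gamma, eEF1alpha1 and eEF5. General transcription factors were bound in 5 of 15 (Taf4 with 311.9, Polr2F with 261.7), aminoacyl-tRNA synthetases in 2 of 11 (2 in replicate 1 and 1 in replicate 2) and replication licensing genes in 1 of 8.

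Tracheal and midline genes stood above the 20.3%. Neuronal genes, at 1 of 14 (7.14%, 0.181 to 33.9), did not, though their interval includes it. Gene length and number of starts were not matched. Of all genes of 30 kb or more 39.6% were bound, and of those with 3 or more starts 53.4%. The midline interval below includes both shares and the tracheal interval the second. The lists were chosen with earlier results of these data known. Tracheal genes were bound in 13 of 19, or 68.4% (43.4 to 87.4), with 16 in replicate 1 and 8 in replicate 2. Their best peaks were of middling signal: bs (blistered, the serum response factor) with 177.1, the FGF receptor adaptor gene stumps with 171.6 and the ETS factor gene pnt with 168.5. Above them stood vvl itself with 321.3, 105 bp upstream of a start, with 267.8 in replicate 1; the peak overlapped one in the list of replicate 2, though with no ranked summit within 100 bp. Of the 13 best tracheal peaks 4 held GAGA and none the octamer, DRE or M1BP word, beside 8.89%, 4.02%, 6.55% and 5.42% of all one-strand peaks. Midline and glial genes were bound in 11 of 18, or 61.1% (35.8 to 82.7), with 10 in replicate 1 and 8 in replicate 2, led by the blood-brain barrier receptor gene moody with 996.6, then Gli (gliotactin) with 313.1, aos (argos, an EGF receptor inhibitor) with 250.2 and the Slit receptor gene robo2 with 242.6. Homeotic and segmentation genes stood at 6 of 20, with 9 in replicate 1 and 4 in replicate 2, led by wg, en, abd-A and opa with 232.0 down to 105.9.

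Chromatin regulators were few, with wide intervals. Insulator and promoter factors had 4 of 7 (57.1%, 18.4 to 90.1), and the strongest peaks were those of Trl, which encodes the GAGA factor, with signal 424.4, BEAF-32 with 311.0, pita with 193.4 and Trf2 with 131.3. Polycomb group genes had 4 of 9 (44.4%, 13.7 to 78.8), led by ph-p with 2297, then escl with 312.9, Su(z)2 with 210.1 and ph-d with 162.4. Heat shock genes had 4 of 16, led by Hsp27, Hsp83 (611.9), Hsp26 (469.8) and Hsp22 (391.9), and immune genes 6 of 18 (4 in replicate 1 and 5 in replicate 2), led by cact with 484.5.

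Sensory, cuticle, detoxification, neuronal and muscle genes had few bound members, but gene length was not matched. Of all genes under 1 kb 5.65% were bound, and of genes with 1 start under 2 kb 9.25%. Among all genes of 30 kb or more the share was 39.6%. Which of these shares suits each list was not tested. Chemosensory receptor genes had 0 of 153, with an exact upper bound of 2.38%, and 1 in replicate 1 and 2 in replicate 2. Cuticle protein genes of the Cpr family had 2 of 67 (interval 0.364 to 10.4%), namely Cpr78Cb with 147.5 and Cpr62Ba with 92.4. Replicate 1 gave 2 of them and replicate 2 gave 0. Cytochrome P450 genes had 3 of 74 (interval 0.844 to 11.4%), with 2 in replicate 1 and 6 in replicate 2. Neuronal genes had 1 of 14 and sarcomere genes 1 of 15 (interval 0.169 to 31.95%), and both intervals include the 20.3%. Strong one-strand peaks lay at elav, a neuronal RNA-binding protein gene, with 921.9 and at the titin-like gene sls with 409.0.

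**Figure D5:**
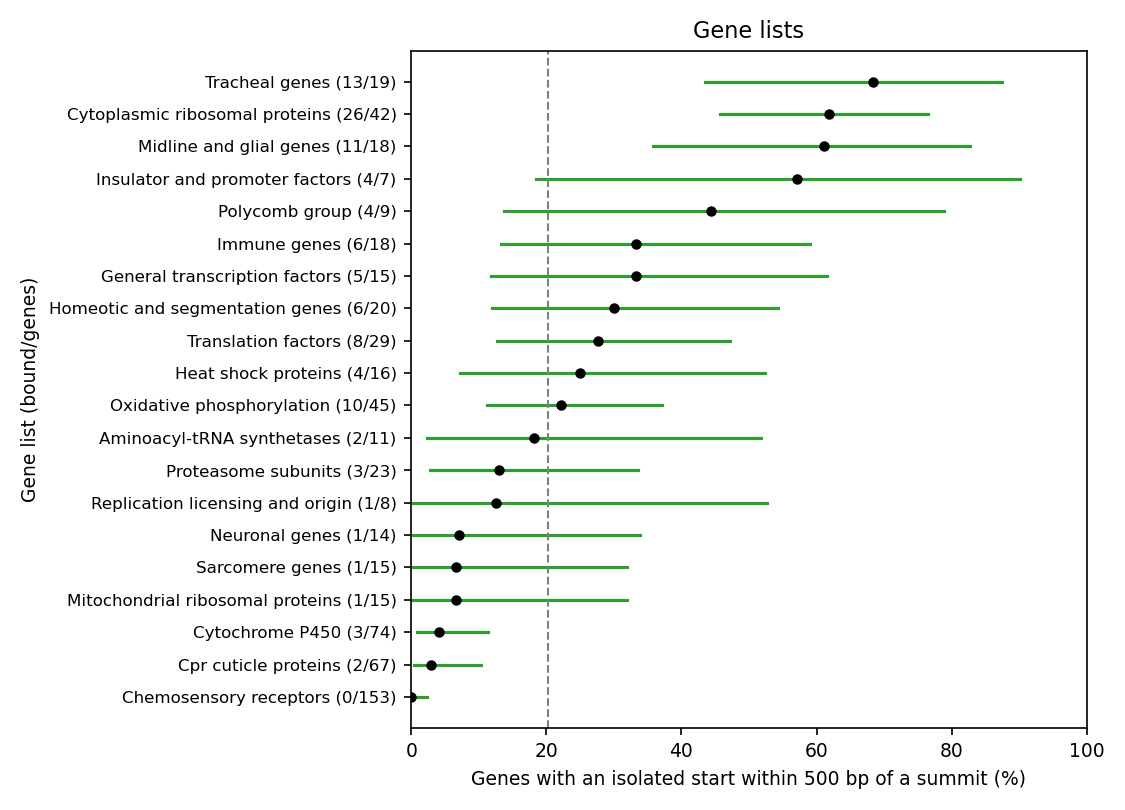
Share of the genes of each of 20 lists that had a summit within 500 bp of an isolated start (points, %, with exact 95% binomial intervals over genes), with bound and total genes in brackets. The dashed line marks the 20.3% of all 9521 genes; tracheal genes lie at 68.4% and chemosensory receptors at 0%.

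Binding at isolated starts was similar on the major arms. Of isolated starts, 17.3% were bound on 2L, 19.0% on 2R, 19.7% on 3L, 16.6% on 3R and 18.5% on X, and 5.21% on chromosome 4 (5 of 96, exact 95% interval 1.71 to 11.7). The value for 3R is short of some peaks: 184 ranked peaks at or under the threshold of the irreproducible discovery rate are not in the conservative list as analysed, and of the 82 one-strand peaks among them 51 are on 3R.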

How the data were processed

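The authors deposited 8 peak lists in dm6 coordinates, 4 thresholded and 4 ranked. Per the file headers and the text beside them, the series' lists drew on both replicates' alignments and each replicate's list on its own; aligner and peak caller are not given in the sources used. Each deposited peak has a signal and a score, and ranked lists add the irreproducible discovery rate (IDR) as −log10; deposited thresholded lists reach down to a −log10 of 2. Signal, the authors' value, served to rank and describe peaks within a list. The possible control experiment in the labels was not used here.

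Summits (start plus peak offset) on 6 arms were set against transcripts of 13945 protein-coding genes of Ensembl release 115. Replicate signals came from the nearest summit within 100 bp in each ranked list. Starts of 1 gene within 500 bp were merged. The 23 words, sought on both strands, were the octamer ATGCAAAT, its variants ATGCTAAT and ATGCATAT and its part TGCAAAT; promoter words the DRE TATCGATA, the M1BP word GGTCACAC, the Ohler words GTATATTT and GTATTTTT, the E-box CAGCTG, the repeat GAGAGAG and the TATA word TATAAAAG; TAATTA (homeodomain), the Twist word CATATG, the Zelda word CAGGTAG, the Sox word ACAATG, the GATA word AGATAAG, the bHLH-PAS word TACGTG and AACCGGTT (Grainyhead); leading words of all peaks, which are ACACTG together with CGATAG and with ACAGTG; and the controls TAAACGTA and AACATGTA. ACACTG occurred at 488 one-strand summits, at 71 of them overlapping the M1BP word by 4 letters. The downstream element was A or G, then G, then A or T, then C or T, then GT, from 24 to 36 bp downstream; the bridge element CGAGC or else CGAAC or else CGCGC from 14 to 26 bp; the TCT initiator CTTT followed by C or T and again C or T, from -4 to 4 bp. A match is a run of letters, not a shown site. Shares were compared by 2-sided Fisher's exact tests with Benjamini-Hochberg adjustment within each family; called 6-mers also had an odds ratio above 1.5 or below its reciprocal. Intervals are at 95%, exact binomial for shares and normal for differences and odds ratios. The 6-mer test was tested on simulated sequences. Genes named are those nearest to the 20 strongest peaks, the 5 strongest per word, up to 4 per gene list, the 5 strongest missing from a replicate list and 3 on each side of the limit; genes with the most peaks were added. The members, words and lists were chosen with earlier results of these data known. Python 3.11.15, scipy 1.17.1 and pandas 2.3.3 were used.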

Additional observations from a re-analysis of the deposited data

How the results depend on the processing

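Each result was recomputed in the broader list, in each replicate's list alone, among the stronger 50% of peaks by signal, with other distances, windows and overlaps, and among peaks or starts of middle GC content (for peaks, chosen after seeing the data). Of 266 values 221 counted as unchanged, and for the others the cause was not tested. For tested values, unchanged meant the same direction and side of the threshold. Counts, shares and medians have no threshold and were judged by the size of their change. Differences between one-strand and divergent peaks in DRE, GAGA and TAATTA near summits, in overlap with replicate 2 and in high signal kept their calls in every alternative run. Their sizes moved: GAGA's odds ratio was 5.24 to 41.6, and 18.4 in replicate 1's and 7.97 in replicate 2's list alone, and the overlap with replicate 2 was -17.5 points in replicate 1's list. The overlap with replicate 1 did not: against divergent peaks it was 3.69 points with only replicate 2's list, -3.92 at 250 bp from a start and -0.139 when 50% of the peak had to overlap; against other peaks it was 3.08, 3.77 (broader list), -0.454 (stronger peaks) and -0.710 (250 bp). The excess of high signal over other peaks was 4.49 points in the broader list and 2.29 to 3.68 with 1 replicate left out. It was 4.46 among stronger peaks, -0.359 at 250 bp and 3.37 at 1000 bp. This difference did not pass in the main run. It passed in each of these runs except that at 250 bp (Fisher's exact test, adjusted exact p = 0.7505). The one-strand peaks numbered 1285 among the stronger 50%. Words that differed from divergent peaks numbered 8 in the broader list and 10 within 200 bp. The odds ratio of the octamer against divergent peaks was 0.931 to 1.19 with 1 replicate left out, and at bound over unbound starts 0.932 to 1.17, and 0.860 from 100 bp upstream to 50 bp downstream. There, 185 6-mers were more and 206 less frequent at bound starts. GAGA against other peaks fell to 1.24 at middle GC content. The M1BP word against divergent peaks lost its call in 4 of 9 alternatives (0.669 to 0.758). The median position was -75 to -65 bp with 1 replicate left out, -104 bp among stronger peaks and -73.5 bp at isolated starts of single-start genes. The share of bound genes was 25.6% in the broader list, 17.7% to 20.9% with 1 replicate left out and 11.4% for stronger peaks. Words that differed by signal numbered 1 to 2 with 1 replicate left out and 7 among stronger peaks, where the octamer's odds ratio was 0.861. Other reversals were those of TAATTA at bound starts (0.818 to 1.00 with 1 replicate left out), the TCT initiator (0.933 to 1.25) and the DRE by signal (0.706 to 1.20). By signal among stronger peaks the M1BP word passed (0.266). No paired analysis was possible because there is 1 group. Peak lists carry no read counts, so what depth limits cannot be given.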
